A study of Danio rerio with 6 samples.

Results

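The 65 predicted miRNAs, named dre-miR-N01 to dre-miR-N65, are small RNAs that are not in miRBase and that the authors predicted from their own reads. They were taken by their names from the deposited table, which holds 414 miRNAs, 349 of them known. ZF4 is a fibroblast cell line from zebrafish embryos, and it was grown in the same medium at 28°C (control, 3 libraries) or at 18°C for 30 days (cold acclimation, 3 libraries). ZF4 is 1 established line without a transgene or a mutation in its labels, so no other background is represented. The labels call the 3 libraries of a temperature biological replicates.

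A miRNA is cut from a hairpin-shaped precursor by the enzymes Drosha and Dicer and is loaded into an Argonaute protein. It guides this protein to mRNAs, mostly by pairing of its seed (bases 2 to 8), and such mRNAs are repressed. Prediction programs look for stacked small RNA reads at a locus whose surrounding sequence can fold into a stable hairpin, with a low free energy. Inverted repeats, such as those at the ends of DNA transposons, also fold into hairpins, and a sequence from a repeat has many matches in the genome. No role is known here for any of the 65, and they are therefore ordered by sequence, level and change.

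The mature sequences of the 8 with the largest fold changes that passed the thresholds given later are shown first, because the comparison of temperatures turns on them. Each is written 5′ to 3′ with its seed in capitals and with T for U.
dre-miR-N56: aTGACTCAaacttgaggactt
dre-miR-N44: tTTCCGGCcagatgcggcggccg
dre-miR-N33: tAACGTTTcgagcccactgactg
dre-miR-N61: tTACAATTaaaggatatttctt
dre-miR-N62: aAGGCGTAccgaactgaaccgt
dre-miR-N60: cAGCACAAggctacgctcttct
dre-miR-N55: aCTGCTGAtaagcctgtggggc
dre-miR-N52: cCCGGCGCcccccggatgccct
The first 5 were lower and the last 3 higher in cold acclimated cells, and no seed occurred in more than 1 of the 8. Their G+C content spanned the whole range of the 65, from 18.2% in dre-miR-N61 to 86.4% in dre-miR-N52.

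Their positions come from the authors' list of predicted miRNAs, which names no genome build; the submitters' processing notes name danRer10 (GRCz10). The positions are chr4:52839805-52839825 (minus strand) for dre-miR-N56, chr6:17896394-17896416 (minus) for dre-miR-N44, chr24:1825466-1825488 (minus) for dre-miR-N33, chr17:25935615-25935636 (minus) for dre-miR-N61 and chr3:4071746-4071767 (minus) for dre-miR-N62. dre-miR-N60 is placed at chr8:16052271-16052292 (minus), dre-miR-N55 at chr12:10081858-10081879 (minus) and dre-miR-N52 at chr4:53879570-53879591 (plus). The list gives 1 genomic hit for dre-miR-N33, dre-miR-N55 and dre-miR-N60, 2 hits for dre-miR-N44 and dre-miR-N61, 6 for dre-miR-N62, 8 for dre-miR-N56 and 14 for dre-miR-N52, so for 5 of the 8 the printed position is not the only match. Genes, exons and introns at these positions were not analysed here.

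21 of the 65 shared a run of at least 10 bases with another predicted miRNA, on the same or the opposite strand. Joined through such links, these fell into 6 sequence groups. Not every pair within a group shares such a run: dre-miR-N15 and dre-miR-N62, both linked to dre-miR-N09, have only 7 bases in common. The sequences are shown because the members of a group are not independent, and because 4 seeds occurred in more than 1 predicted miRNA. The seed TGACTCA was common to 3, and the alignment below has the 7 seed bases in capitals.
dre-miR-N21: aTGACTCAaacccggggactcg
dre-miR-N36: aTGACTCAaacccgaggactca
dre-miR-N56: aTGACTCAaacttgaggactt
The seed GCAGGAC was common to dre-miR-N28 and dre-miR-N30, which share their first 21 bases, in capitals here.
dre-miR-N28: TGCAGGACACCGGACCTCCAGt
dre-miR-N30: TGCAGGACACCGGACCTCCAGgt
The seed TCACTGT was common to dre-miR-N02 and dre-miR-N47, which differ by 1 added base at the 3′ end (shared bases in capitals).
dre-miR-N02: TTCACTGTGGCGGAAATGACC
dre-miR-N47: TTCACTGTGGCGGAAATGACCt
The seed ATGAAAG was common to dre-miR-N07 and dre-miR-N64, with a shared run of 19 bases, again in capitals.
dre-miR-N07: TATGAAAGTCAATGGTTACcgt
dre-miR-N64: TATGAAAGTCAATGGTTACac
The sources used here do not say to which of several matching miRNAs a read was assigned, so the levels of such close members are uncertain relative to each other.

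Some members were related through opposite strands. The capitals in the next 3 pairs mark runs that are reverse complements of each other, of 16, 11 and 13 bases.
dre-miR-N01: gaaagaTGTAACCATTGACTTT
dre-miR-N64: tatgAAAGTCAATGGTTACAc
dre-miR-N09: ctgtACGGTTCAGTTtggtatg
dre-miR-N62: aaggcgtaccgAACTGAACCGT
dre-miR-N16: cCCGGTGTCCTGCAtagtttag
dre-miR-N28: TGCAGGACACCGGacctccagt
The group of dre-miR-N01 and dre-miR-N64 also held dre-miR-N07, dre-miR-N13, dre-miR-N35 and dre-miR-N39. The group of dre-miR-N09 and dre-miR-N62 held dre-miR-N15, and that of dre-miR-N16 and dre-miR-N28 held dre-miR-N30, dre-miR-N41 and dre-miR-N57. The remaining group was dre-miR-N17 and dre-miR-N25, with 13 bases in common on the same strand.
dre-miR-N17: ctcCAACCTTGATCAAgcagct
dre-miR-N25: aCAACCTTGATCAAacgcaact

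The level of a miRNA is given in TPM, which is here its reads per 1000000 reads of the miRNAs in the table, with no term for length. The 6 libraries held 11748241 to 14960610 such reads, and 1 read was worth 0.0668 to 0.0851 TPM. Of the cell type markers looked at, those of mesenchymal cells, to which fibroblasts belong, were by far the highest: 7 of them (dre-miR-21, dre-miR-143 and others) summed to 403637 to 408159 TPM in control and 388817 to 428570 TPM in cold libraries. The summed markers of other cell types lay far below, at 95.2 to 190 TPM for epithelial, 247 to 685 TPM for neural, 2.04 to 5.61 TPM for muscle and 0.948 to 4.37 TPM for blood markers, with none at 0 in all libraries. A mean under 1 TPM was found for 3 of 7 epithelial, 2 of 4 neural, 2 of 3 muscle and 3 of 4 blood markers. Neural markers were at 247 to 449 TPM in control and 381 to 685 TPM in cold libraries, and their part in the results was not tested. The libraries are bulk RNA, so a lower level in every cell and a smaller share of cells with the miRNA cannot be told apart, and every level is a share of the miRNA reads.

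All 65 predicted miRNAs were rare. Their summed level was 338, 361 and 335 TPM in control replicates 1, 2 and 3 and 328, 368 and 262 TPM in cold acclimation replicates 1, 2 and 3, or 0.0262 to 0.0368% of the miRNA reads of a library. The lowest value was that of cold acclimation replicate 3, and the groups overlapped. The means were 345 ± 14.3 TPM in control and 319 ± 53.5 TPM in cold acclimation (SD, n = 3 each), a difference within the spread between libraries (p = 0.6 in an exact permutation test, two-sided, with 0.1 as its lowest possible p). Without cold acclimation replicate 3 the difference turned from -25.1 to 3.60 TPM. The result also depended on the scaling: the difference was -79.7 TPM with the clean reads as library sizes, -47.8 TPM with median-of-ratios scaling and -66.8 TPM when dre-let-7a and dre-miR-100-5p were left out of the total, and in each of these all cold libraries lay below all control libraries (exact permutation p = 0.1, the lowest possible).

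The mean level of a single predicted miRNA over the 6 libraries ran from 1.51 to 24.2 TPM, with a median of 3.67 TPM. 10 were below 2 TPM, 32 between 2 and 5 TPM, 17 between 5 and 10 TPM and 6 at 10 TPM or more. In reads, no predicted miRNA had fewer than 10 or more than 434 in a library, when the smallest step between the values of a library is taken as 1 read. All 65 passed the filter used for testing (a mean above 1.5 TPM), because the authors listed only predicted miRNAs with a mean above 20 reads.

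The 5 most abundant predicted miRNAs, dre-miR-N65, dre-miR-N63, dre-miR-N64, dre-miR-N62 and dre-miR-N61, held 22.5% of the summed level of the 65. dre-miR-N65 had the highest mean, 24.2 TPM, and ranked 153 of all 414 miRNAs. Its values were 13.8, 15.1 and 22.3 TPM in control and 32.5, 36.9 and 24.4 TPM in cold libraries. The groups did not overlap, but control replicate 3 and cold acclimation replicate 3 lay close together, and the difference of 0.85 on log2(TPM + 1) did not pass the test given next (SE 0.25, adjusted p = 0.016). Its sequence is shown because it is the only one of the 65 that ends in CCA, the bases that close the 3′ end of mature tRNAs (seed in capitals).
dre-miR-N65: cAGATCCCggacgagccccca
It is placed at chr21:36152717-36152737 (plus strand) and has 9 genomic hits. dre-miR-N63 was at 11.0, 11.4 and 10.6 TPM in control and 17.9, 18.2 and 13 TPM in cold libraries, again without overlap and without passing the test (log2(TPM + 1) difference 0.52, SE 0.21, adjusted p = 0.063).

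The 3 least abundant were dre-miR-N01, dre-miR-N02 and dre-miR-N03. dre-miR-N01 was at 1.67, 1.97 and 2.90 TPM in control and 0.828, 0.851 and 0.859 TPM in cold libraries. dre-miR-N02 was at 1.47, 1.31 and 1.10 TPM in control and 2.73, 2.38 and 1.5 TPM in cold libraries. dre-miR-N03 was at 1.20, 1.46 and 1.66 TPM in control and 2.24, 2.72 and 1.65 TPM in cold libraries. The groups overlapped for dre-miR-N03 only, and none of the 3 passed the test. The shortest, dre-miR-N50 with 18 bases and 16 genomic hits, was at 4.81, 5.03 and 7.86 TPM in control and 7.78, 9.70 and 6.52 TPM in cold libraries, with overlap.

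To ask which predicted miRNAs respond to cold acclimation, log2(TPM + 1) was compared between temperatures with limma for the 310 miRNAs above the filter, and p-values were adjusted over all of these with the Benjamini-Hochberg method. A miRNA rose or fell where the adjusted p was under 0.01, and a fold above 2.5 on this scale made it a DE-miRNA in addition. Of the predicted miRNAs, 8 rose (12.3%) and 17 fell (26.2%), against 16.5% that rose and 14.5% that fell among all 310. The share that rose was below the background and the share that fell was above it. The median log2(TPM + 1) difference was -0.08 for the predicted and 0.02 for all 310 miRNAs. The known miRNAs gave 43 rises and 28 falls among 245, and of the 93 known miRNAs no more abundant than dre-miR-N65, 14 rose and 4 fell (4.30%). The predicted miRNAs had to be seen in all samples to be listed, and no such rule is given for the known. Members that share sequence are among the falls, and no test of the list was made.

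By both criteria 3 predicted miRNAs were higher and 5 lower in cold acclimation, while 7.42% of all 310 were higher and 4.19% lower. Leaving out a library moved the counts of predicted miRNAs and those of all 310. Without cold acclimation replicate 1, 2 predicted miRNAs rose and 6 fell, against 24 and 18 of all 310. Without cold acclimation replicate 2 the counts were 2 and 11, against 25 and 28. Without cold acclimation replicate 3 they were 3 and 8, against 42 and 21. Leaving out control replicate 1 gave 4 rises and 11 falls, against 34 and 27. Leaving out control replicate 2 gave 5 and 12, against 39 and 29. Leaving out control replicate 3 gave 10 and 18, against 68 and 67. With a replicate block 5 predicted miRNAs rose and 12 fell, against 39 and 30 of all 310.

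**Figure D1:**
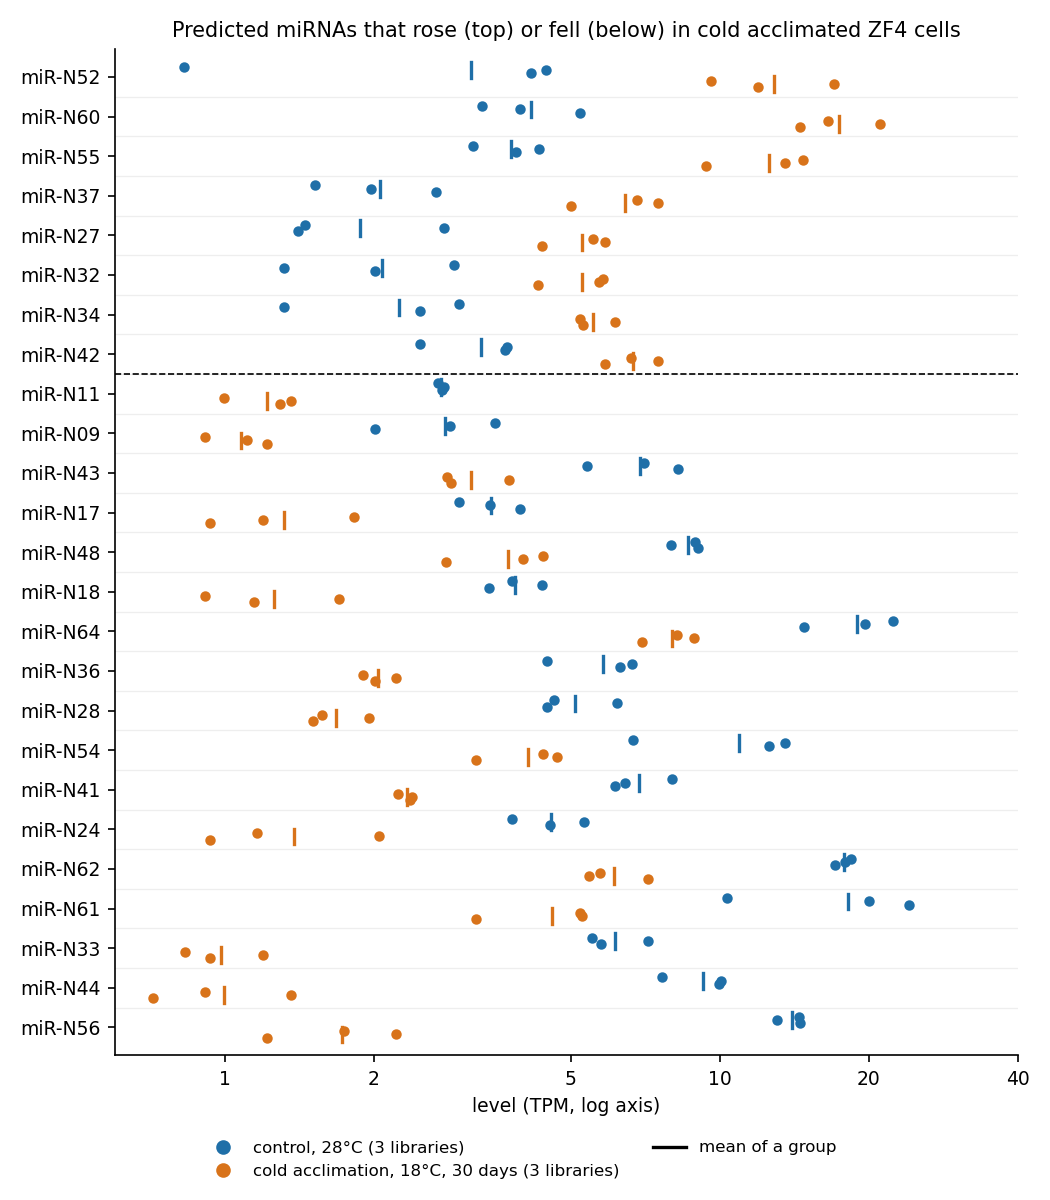
Levels of the 25 predicted miRNAs that rose (above the dashed line) or fell (below it), on a log axis in TPM. Each point is a library, blue for control and orange for cold acclimation, and the bars in the same colours are group means. The points of the groups do not overlap for any of the 25, but these were picked by a test on the same values. Among all 310 miRNAs tested, every cold library was below every control library for 28.4% and above for 29.7%. dre-miR-N56 drops from 13.1 to 14.5 TPM in control to 1.22 to 2.21 TPM in cold, and dre-miR-N52 has a control library at 0.828 TPM.

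The 2 deepest falls were those of dre-miR-N56 and dre-miR-N44. dre-miR-N56 was at 14.5, 13.1 and 14.5 TPM in control and 1.74, 2.21 and 1.22 TPM in cold libraries. Its mean was 8.13-fold lower in cold acclimation in TPM, and the log2(TPM + 1) difference was -2.48 (SE 0.21, adjusted p = 2.9e-05). dre-miR-N44 was at 9.96, 10.1 and 7.66 TPM in control and 0.911, 1.36 and 0.716 TPM in cold libraries, 9.26-fold lower in mean TPM (log2(TPM + 1) difference -2.36, SE 0.22, adjusted p = 4.2e-05). Every cold library was far below every control library for both, and the cold values rest on few reads.

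dre-miR-N33 was at 5.75, 7.15 and 5.52 TPM in control and 0.828, 1.19 and 0.931 TPM in cold libraries, 6.24-fold lower (log2(TPM + 1) difference -1.84, SE 0.20, adjusted p = 9.4e-05). It has a single genomic hit, so no second locus is listed for its reads. dre-miR-N61 was at 24.1, 19.98 and 10.3 TPM in control and 5.22, 5.28 and 3.22 TPM in cold libraries, 3.97-fold lower (log2(TPM + 1) difference -1.73, SE 0.31, adjusted p = 0.0018). Control replicate 3 was the lowest control library and cold acclimation replicate 3 the lowest cold library, and without the latter the adjusted p was 0.013. dre-miR-N62 was at 17.1, 17.9 and 18.4 TPM in control and 5.71, 5.45 and 7.16 TPM in cold libraries, 2.92-fold lower (log2(TPM + 1) difference -1.41, SE 0.20, adjusted p = 0.0004). Its libraries were close together within each temperature.

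Among the rises, dre-miR-N60 was at 5.21, 3.94 and 3.31 TPM in control and 16.6, 21.1 and 14.5 TPM in cold libraries, 4.19-fold higher in mean TPM (log2(TPM + 1) difference 1.84, SE 0.23, adjusted p = 0.00021). dre-miR-N55 was at 3.88, 4.30 and 3.17 TPM in control and 14.7, 13.5 and 9.38 TPM in cold libraries, 3.32-fold higher (log2(TPM + 1) difference 1.49, SE 0.23, adjusted p = 0.00075). Both have 1 genomic hit, and every cold library was above every control library. dre-miR-N52 was at 4.14, 4.45 and 0.828 TPM in control and 9.61, 17 and 12 TPM in cold libraries, 4.10-fold higher (log2(TPM + 1) difference 1.87, SE 0.40, adjusted p = 0.0044). Control replicate 3 stood apart from the other control libraries, and the adjusted p was 0.011, 0.026 and 0.025 without cold acclimation replicate 1, 2 and 3.

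**Figure D2:**
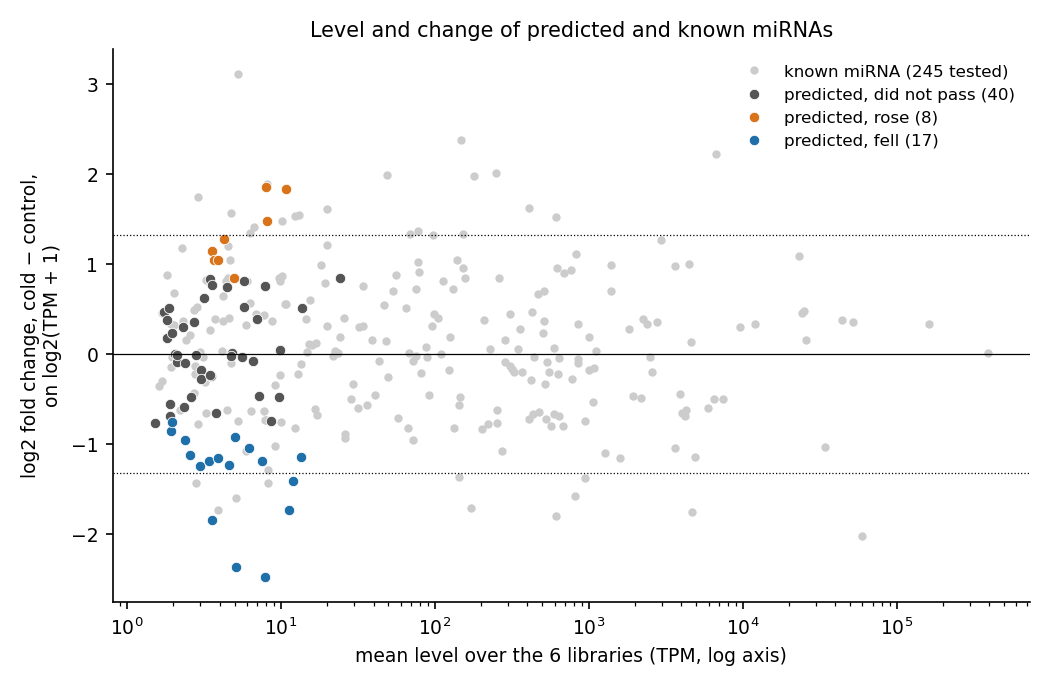
Mean level over the 6 libraries (TPM, log axis) against the log2(TPM + 1) difference of cold acclimation minus control for the 310 tested miRNAs, with dotted lines at a fold of 2.5. Grey points are known miRNAs and coloured points the 65 predicted miRNAs, which lie between 1.51 and 24.2 TPM, with 8 marked as risen and 17 as fallen.

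The fold cutoff depended on the number added before the logarithm, because 1 TPM is large beside these levels. On log2(TPM + 0.1), 7 predicted miRNAs rose and 17 fell, against 15.5% and 14.5% of all 310. The DE-miRNAs were then 7 higher and 12 lower, against 9.35% and 6.77% of all 310. 11 that had passed the adjusted p alone became DE-miRNAs on this scale, 4 of them higher and 7 lower, and dre-miR-N42 lost its call, so that 12 changed their standing.

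The 4 that rose were dre-miR-N37, dre-miR-N27, dre-miR-N32 and dre-miR-N34. dre-miR-N37 was at 2.67, 1.97 and 1.52 TPM in control and 6.79, 7.49 and 5.01 TPM in cold libraries, with a log2(TPM + 1) difference of 1.29 (SE 0.23, adjusted p = 0.0018). dre-miR-N27 was at 1.40, 2.77 and 1.45 TPM in control and 5.55, 5.87 and 4.37 TPM in cold libraries, with a log2(TPM + 1) difference of 1.15. For both the highest control library was well below the lowest cold library. dre-miR-N32 was at 2.01, 1.31 and 2.90 TPM in control and 5.80, 5.70 and 4.30 TPM in cold libraries, with a log2(TPM + 1) difference of 1.05. dre-miR-N34 was at 2.47, 1.31 and 2.97 TPM in control and 5.22, 6.13 and 5.30 TPM in cold libraries, with a log2(TPM + 1) difference of 1.04. dre-miR-N42, at 3.68, 3.72 and 2.48 TPM in control and 6.62, 7.49 and 5.87 TPM in cold libraries, was the weakest of the rises (log2(TPM + 1) difference 0.84, adjusted p = 0.0097). When 1 library was left out, the call of dre-miR-N42 was lost in 6 of 6 fits, those of dre-miR-N32 and dre-miR-N34 in 5 of 6, that of dre-miR-N27 in 4 and that of dre-miR-N37 in 2, and the first 3 were also lost with a replicate block.

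Of the falls that became DE-miRNAs only on log2(TPM + 0.1), dre-miR-N24 was at 4.55, 5.32 and 3.79 TPM in control and 1.16, 2.04 and 0.931 TPM in cold libraries, with a log2(TPM + 1) difference of -1.24. It has 16 genomic hits and belongs to no sequence group. dre-miR-N54 was at 12.6, 13.6 and 6.69 TPM in control and 4.39, 4.68 and 3.22 TPM in cold libraries, with a log2(TPM + 1) difference of -1.19 (adjusted p = 0.0065). Control replicate 3 was low for it, as for dre-miR-N61, and its call was lost in 5 of the 6 fits that left out 1 library. dre-miR-N18 was at 3.41, 4.38 and 3.79 TPM in control and 0.911, 1.70 and 1.15 TPM in cold libraries, with a log2(TPM + 1) difference of -1.12. The other 4, dre-miR-N17, dre-miR-N28, dre-miR-N36 and dre-miR-N41, belong to sequence groups and are described with them. Outside the sequence groups, 3 further miRNAs fell without reaching the fold cutoff on either scale. dre-miR-N48 was at 9.02, 7.95 and 8.90 TPM in control and 4.39, 4.0 and 2.79 TPM in cold libraries (log2(TPM + 1) difference -1.04). dre-miR-N43 was at 8.22, 5.40 and 7.04 TPM in control and 2.82, 3.75 and 2.86 TPM in cold libraries (difference -0.92). dre-miR-N11 was at 2.74, 2.77 and 2.69 TPM in control and 0.994, 1.36 and 1.29 TPM in cold libraries (difference -0.76). These falls depended on single libraries: the calls were lost in 3, 4 and 5 of the 6 fits that left out 1 library. They were also lost with a replicate block, and that of dre-miR-N11 also at a pseudocount of 5 TPM (adjusted p = 0.012).

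Every cold library was below every control library for 23 of the 65 and above every control library for 19, while these shares were 28.4% and 29.7% among all 310 miRNAs, so the predicted miRNAs lay near the background in this respect. 23 of the 65 neither rose nor fell, shared no sequence and were neither among the most or least abundant nor the shortest. They had means of 1.83 to 9.81 TPM and log2(TPM + 1) differences of -0.55 to 0.84, and 12 of them were higher in cold acclimation. Without overlap, dre-miR-N05, dre-miR-N26, dre-miR-N29, dre-miR-N38, dre-miR-N46 and dre-miR-N53 were higher and dre-miR-N06 and dre-miR-N51 lower.

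The predicted miRNAs that share sequence were mostly lower in cold acclimation. Of the 21 in sequence groups, 17 had a lower mean on log2(TPM + 1), 8 fell and 0 rose, with a median log2(TPM + 1) difference of -0.69. Of the 44 in no group, 9 fell and 8 rose, with a median of 0.12. Among all 310 miRNAs 14.5% fell and 16.5% rose, with a median of 0.02. Summed over the 21, the level was 113, 125 and 129 TPM in control and 66.4, 72.0 and 58.1 TPM in cold libraries, while the other 44 summed to 225, 236 and 206 TPM and 262, 296 and 204 TPM. Cold libraries lay clear below control libraries for the first sum and overlapped with them for the second. The median of the 21 stayed between -0.61 and -0.78 when 1 library was left out, but the number of falls was 3 when cold acclimation replicate 1 was left out, and 5 when either cold acclimation replicate 3 or control replicate 2 was. The falls among all 310 went from 45 to 18, 21 and 29 in these fits, so this drop was not particular to the groups. The contrast in falls also rests on the length of the shared run: with at least 12 bases, 16 miRNAs remained in groups, of which 4 fell and 0 rose (median -0.45), against 13 falls and 8 rises among the other 49 (median -0.02).

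**Figure D3:**
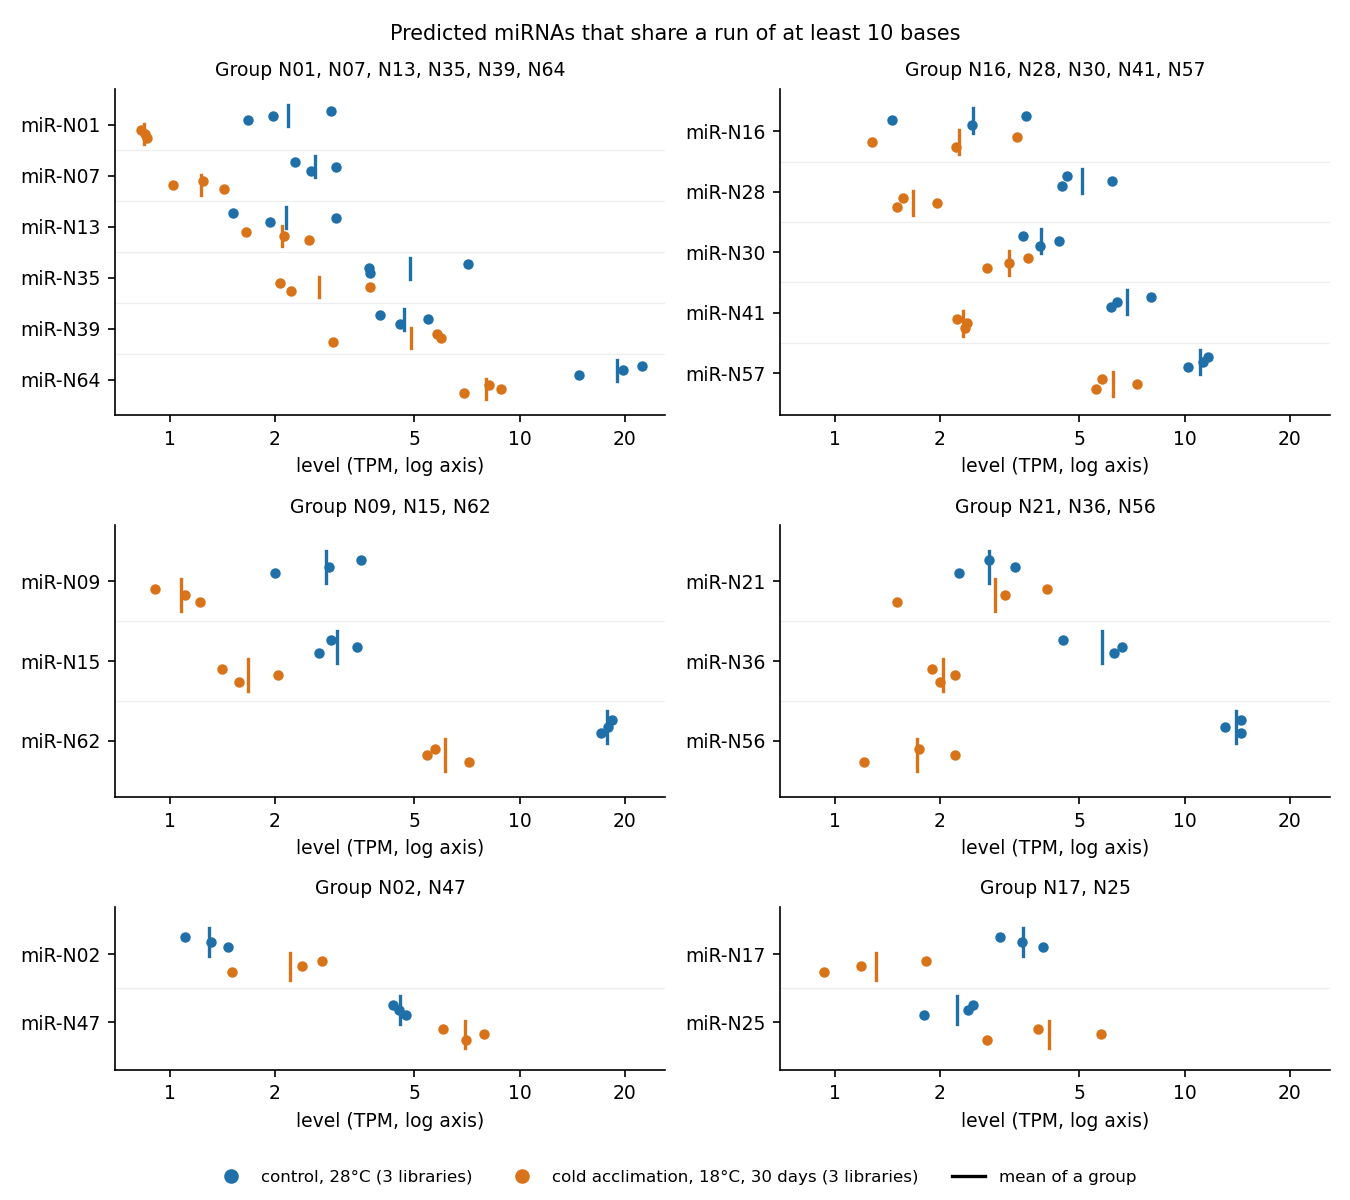
Levels in TPM (log axis) of the 21 predicted miRNAs that share a run of at least 10 bases, 1 panel for each of the 6 groups. Points are libraries, blue for control and orange for cold acclimation, and bars in the same colours are group means. Cold points lie left of control points for dre-miR-N56, dre-miR-N36, dre-miR-N62, dre-miR-N41 and dre-miR-N64, and right of them for dre-miR-N02, dre-miR-N47 and dre-miR-N25.

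The 3 miRNAs with the seed TGACTCA did not move together. dre-miR-N36 was at 6.28, 6.64 and 4.48 TPM in control and 1.90, 2.21 and 2.0 TPM in cold libraries, and it fell (log2(TPM + 1) difference -1.15, SE 0.21, adjusted p = 0.0019). dre-miR-N21 was at 2.27, 3.28 and 2.76 TPM in control and 4.06, 3.06 and 1.5 TPM in cold libraries, with overlap and a log2(TPM + 1) difference of -0.01 (SE 0.28). dre-miR-N56, above, was the highest of the 3 in every control library and stood below dre-miR-N21 in every cold library. The log2 ratio of dre-miR-N56 to dre-miR-N21 in TPM was 2.35 ± 0.34 in control and -0.67 ± 0.49 in cold libraries (SD, n = 3 each). This gave an exact two-sided permutation p of 0.1, the smallest that 3 against 3 libraries allow, and an adjusted p of 0.14 over the 7 pairs compared.

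dre-miR-N28 and dre-miR-N30, which differ only at the 3′ end, also parted. dre-miR-N28 was at 4.48, 6.20 and 4.62 TPM in control and 1.57, 1.96 and 1.5 TPM in cold libraries, and it fell (log2(TPM + 1) difference -1.18, SE 0.21, adjusted p = 0.0016). dre-miR-N30 was at 3.88, 4.38 and 3.45 TPM in control and 3.56, 3.15 and 2.72 TPM in cold libraries, with overlap and a difference of -0.24 (SE 0.20). The log2 ratio of dre-miR-N30 to dre-miR-N28 in TPM went from -0.38 ± 0.15 in control to 0.91 ± 0.25 in cold libraries (exact permutation p = 0.1, adjusted p = 0.14). So in the values given, dre-miR-N28 was the more abundant in control libraries and dre-miR-N30 in cold libraries. How reads that match both were assigned is not known, so this order is uncertain.

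The other members of their group varied in size of change. dre-miR-N41 was at 6.15, 6.42 and 8.0 TPM in control and 2.24, 2.38 and 2.36 TPM in cold libraries, and it fell (log2(TPM + 1) difference -1.23, SE 0.20, adjusted p = 0.00092). dre-miR-N57 was at 10.2, 11.3 and 11.7 TPM in control and 5.80, 7.32 and 5.58 TPM in cold libraries, without overlap but also without passing the test (difference -0.74, adjusted p = 0.012). dre-miR-N16 was at 2.47, 1.46 and 3.52 TPM in control and 3.31, 1.28 and 2.22 TPM in cold libraries, with full overlap. The 5 summed to 29.4 ± 2.04 TPM in control and 15.7 ± 1.11 TPM in cold libraries (SD, n = 3 each).

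In the largest group, the abundant member carried most of the change. dre-miR-N64 was at 14.8, 19.7 and 22.4 TPM in control and 8.20, 8.85 and 6.95 TPM in cold libraries, 2.37-fold lower (log2(TPM + 1) difference -1.14, SE 0.22, adjusted p = 0.0026). Its call was lost in 3 of the 6 fits that left out 1 library. dre-miR-N07, with the same seed, was at 2.54, 2.99 and 2.28 TPM in control and 1.24, 1.02 and 1.43 TPM in cold libraries (difference -0.69, adjusted p = 0.015). The log2 ratio of dre-miR-N64 to dre-miR-N07 in TPM was 2.85 ± 0.40 in control and 2.71 ± 0.42 in cold libraries (exact permutation p = 0.7), a difference within the spread between libraries. dre-miR-N35 was at 3.74, 3.72 and 7.10 TPM in control and 2.07, 3.75 and 2.22 TPM in cold libraries. dre-miR-N13 was at 1.94, 2.99 and 1.52 TPM in control and 1.66, 2.13 and 2.51 TPM in cold libraries, and dre-miR-N39 was at 4.55, 5.47 and 4.0 TPM and 5.80, 5.96 and 2.94 TPM. The groups overlapped for these 3, and dre-miR-N01, described above, was low in every cold library.

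In the group of dre-miR-N62, all 3 members were lower in every cold library. dre-miR-N09 was at 2.01, 2.84 and 3.52 TPM in control and 0.911, 1.11 and 1.22 TPM in cold libraries, and it fell at the edge of the threshold (log2(TPM + 1) difference -0.85, SE 0.22, adjusted p = 0.0099). This call was lost in each of the 6 fits that left out 1 library and with a replicate block. dre-miR-N15 was at 2.67, 3.43 and 2.90 TPM in control and 1.41, 2.04 and 1.58 TPM in cold libraries, without passing the test (difference -0.58, adjusted p = 0.035).

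Members of the last groups went up or in opposite directions. dre-miR-N47 was at 4.75, 4.52 and 4.35 TPM in control and 6.05, 7.92 and 7.02 TPM in cold libraries, and like dre-miR-N02 it was higher in every cold library without passing the test (log2(TPM + 1) difference 0.52, adjusted p = 0.051). The log2 ratio of dre-miR-N47 to dre-miR-N02 was 1.82 ± 0.15 in control and 1.70 ± 0.54 in cold libraries (exact permutation p = 0.8). dre-miR-N17 was at 3.94, 3.43 and 2.97 TPM in control and 1.82, 1.19 and 0.931 TPM in cold libraries, and it fell (log2(TPM + 1) difference -0.95, SE 0.22, adjusted p = 0.0063), with the call lost in 5 of those 6 fits and with a replicate block. dre-miR-N25 was at 1.8, 2.41 and 2.48 TPM in control and 3.81, 5.79 and 2.72 TPM in cold libraries, with a difference of 0.62 (adjusted p = 0.066). The order of these 2 was thus reversed between the temperatures in every library, while their sum was 5.68 ± 0.20 TPM in control and 5.42 ± 1.67 TPM in cold libraries.

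The authors' list also gives the length of the precursor hairpin, its minimum free energy and the number of genomic hits. The hairpins were 59 to 317 nt long, with free energies from -124.59 to -20.6 kcal/mol (the prediction itself required a low free energy), and the free energy followed the length closely (Spearman rho -0.89 across the 65). 27 predicted miRNAs had 1 hit, 21 had 2 to 4 hits and 17 had 5 or more, up to 16. The mature sequences were 18 to 23 nt long, 31 of them 22 nt, 14 each 21 and 23 nt, and 6 shorter. 28 began with T, 21 with A, 10 with C and 6 with G. These relations are descriptions across miRNAs, some of which share sequence and all of which share libraries.

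**Figure D4:**
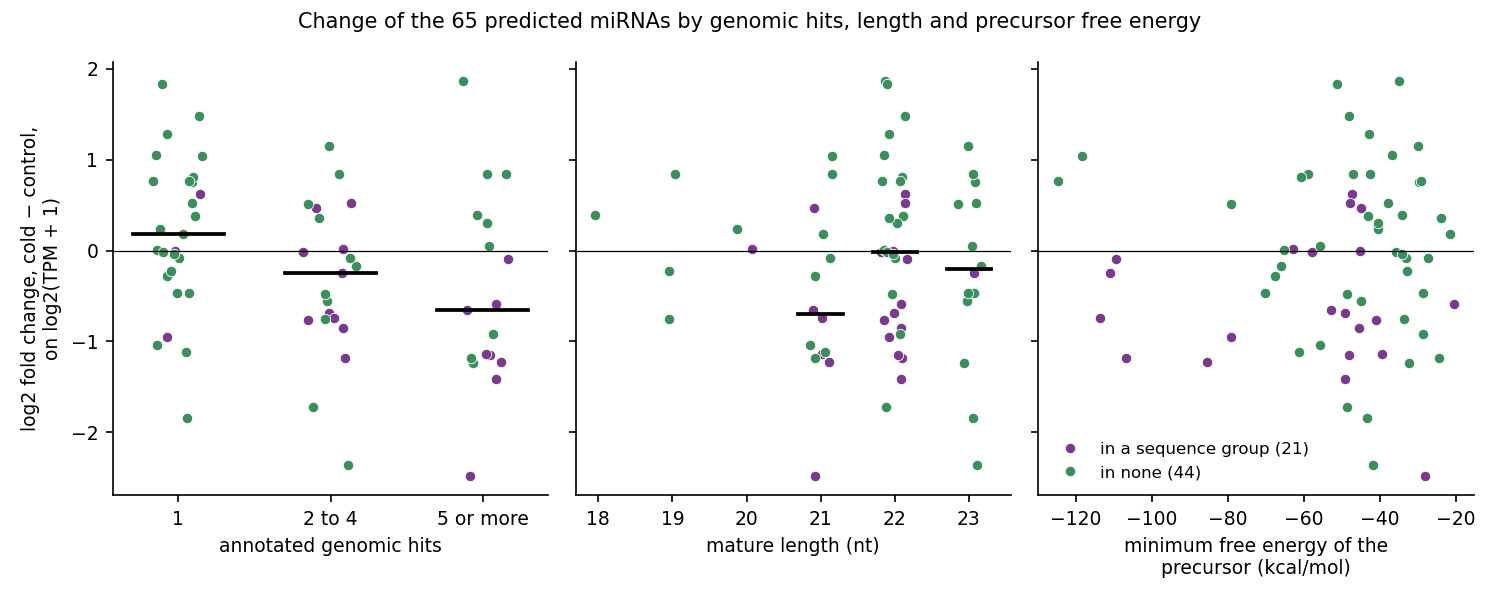
Log2(TPM + 1) difference of cold acclimation minus control for the 65 predicted miRNAs against the number of genomic hits, the mature length in nt and the minimum free energy of the precursor in kcal/mol. Purple points are the 21 in sequence groups and green points the other 44, and black bars are medians of the hit classes and of the lengths 21, 22 and 23 nt; the medians by hits go from 0.19 (1 hit) to -0.24 (2 to 4 hits) and -0.65 (5 or more).

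Of the length, hits, hairpin and G+C features, the number of genomic hits had the largest correlation with the change. Of the 27 with 1 hit, 5 rose and 4 fell, with a median log2(TPM + 1) difference of 0.19. Of the 21 with 2 to 4 hits, 2 rose and 5 fell, with a median of -0.24. Of the 17 with 5 or more hits, 1 (dre-miR-N52) rose and 8 fell, with a median of -0.65. Among all 310 miRNAs 16.5% rose and 14.5% fell. Across the 65 the Spearman correlation of hits with the difference was -0.26, which is weak. Outside the sequence groups the contrast was smaller: 24 with 1 hit had a median of 0.21, with 5 rises and 3 falls, and 20 with 2 or more hits a median of -0.01, with 3 rises and 6 falls. These 2 medians were 0.30 and 0.33 without cold acclimation replicate 3, so the contrast was absent there. In each other fit that left out 1 library the median with 1 hit was the higher. Without cold acclimation replicate 1 only 3, and without cold acclimation replicate 3 only 4, of the 17 with 5 or more hits fell. The falls among all 310 went from 45 to 18 and 21 in the same fits.

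Free energy showed little relation to level or change. Length showed no steady trend with either, although at the median the miRNAs of 21 nt were lower in cold acclimation than those of other lengths. Spearman correlations of the free energy were 0.06 with the mean TPM and 0.02 with the log2(TPM + 1) difference, and 0.03 and 0.03 for the free energy per 100 nt of hairpin. By free energy, 2 rose and 5 fell of 18 above -35 kcal/mol, 3 rose and 7 fell of 25 between -35 and -50 kcal/mol, and 3 rose and 5 fell of 22 below -50 kcal/mol. Among all 310 miRNAs 16.5% rose and 14.5% fell, which is the background for these counts and for those by length and first base below. The DE-miRNA dre-miR-N44 had the most stable hairpin for its length, at -64.5 kcal/mol per 100 nt. dre-miR-N60, at -32.3 kcal/mol per 100 nt, was less stable than the median of the 65 (-38.5), in a range that ended at -27.2. The authors' list also gives a p-value from the randfold program for each hairpin. It was 0.099 for dre-miR-N60 and 0.079 for dre-miR-N52, the highest of the 65. For dre-miR-N33, dre-miR-N44, dre-miR-N55, dre-miR-N61 and dre-miR-N62 it was 0.0099, and for dre-miR-N56 0.020. Its relation to change was not tested. By length, 6 of 14 with 21 nt fell and 1 rose (median difference -0.70), while 7 of 31 with 22 nt fell and 5 rose (median -0.01), 3 of 14 with 23 nt fell and 2 rose, and 1 of the 6 shorter fell. The correlation of length with the log2(TPM + 1) difference was 0.05, and with the mean TPM -0.04. The highest correlation with the mean TPM was that of the G+C content of the mature sequence, at 0.27. Of the 28 that begin with T, 1 rose and 7 fell, and of the other 37, 7 rose and 10 fell.

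The spread between libraries was larger than counting error for most predicted miRNAs, with reads again taken from the smallest step. The variance of the TPM values among the 3 libraries of a temperature was divided by the variance in TPM expected from counting alone. This ratio had a median of 2.38 in control and 2.28 in cold libraries and was above 1 for 45 and 51 of the 65. The median coefficient of variation was 19.0% in control and 20.3% in cold libraries. The ratio was highest for dre-miR-N58 in control, at 62.4, with 9.16, 19.7 and 6.14 TPM in the control libraries and 10.4, 8.60 and 4.15 TPM in the cold libraries. dre-miR-N59 had the highest ratio in cold acclimation, with 12.2, 13.6 and 5.23 TPM, against 8.49, 8.90 and 10.5 TPM in control libraries. For both, and for dre-miR-N22 and dre-miR-N49, cold acclimation replicate 3 was more than 1 below the mean of the other cold libraries on log2(TPM + 1), and control replicate 3 was as far below the other control libraries for dre-miR-N52, dre-miR-N58 and dre-miR-N61. No other library was off by this much for more than 1 predicted miRNA.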

How the data were processed

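Small RNA was sequenced as 50-bp single-end reads from 3 control and 3 cold acclimated samples of ZF4 cells. The authors kept reads of 17 to 35 nt, used bowtie 2.3.0 for alignment to miRBase 22 and miRCat for prediction, keeping hairpin sequences seen in all samples with a mean above 20 reads. The deposited values are CPM, which the authors call TPM: reads of a miRNA per 1000000 miRNA reads. All values of a library were whole multiples of a smallest step (largest deviation 0.00059 steps). This step was taken as 1 read, which gave the depth and 10 to 434 reads for each predicted miRNA, but a library held only 84 to 98 values of up to 20 steps, so no count test was run on these reads. Sequences, positions, hits and free energies come from the authors' list of predicted miRNAs.

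The temperatures were compared on log2(TPM + 1) by limma (version 3.58.1, R 4.3.3), with lmFit and a trended eBayes over all 6 libraries and no block, after a check on simulated data. Sums and ratios were compared with exact permutation tests. The smallest p is 0.1 for 3 against 3. Each limma p-value sets the difference between temperatures against the spread between the libraries of a group. limma estimates this spread with help from all miRNAs tested. A permutation p-value sets the difference against those of all rearrangements of the libraries.

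Values by library are given for miRNAs that rose or fell, the 5 highest and 3 lowest, sequence group members, the shortest sequence and those whose standing differs between pseudocounts of 1 and 0.1 TPM. Those given for dre-miR-N58 and dre-miR-N59 were chosen after their values were seen. The miRNAs, lists and tests were chosen with earlier results of these data known. Alternatives were pseudocounts of 0.1 and 5, no filter or one at 7.5 TPM, other scalings, a replicate block, predicted miRNAs alone and each library left out. Figures were drawn with matplotlib 3.10.9. Target predictions, qRT-PCR, and matches of the predicted sequences to annotated RNA and to the genome were not analysed here.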

Additional observations from a re-analysis of the deposited data

How the results depend on the processing

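The counts depended on the scaling and on single libraries. For all 25 predicted miRNAs that rose or fell the groups do not overlap. Leaving out a library, a replicate block, or another filter or pseudocount could therefore not change their direction. The other scalings could, and none of the 25 changed direction with them. In all alternatives that tested them, 7 kept their call (dre-miR-N33, dre-miR-N41, dre-miR-N44, dre-miR-N55, dre-miR-N56, dre-miR-N60 and dre-miR-N62). With clean reads as library sizes the median log2 difference of all miRNAs shifted by -0.29. Of all 310 miRNAs 32 rose and 77 fell, and of the predicted 4 rose and 21 fell. The predicted DE-miRNAs were 1 higher and 10 lower. With dre-let-7a and dre-miR-100-5p left out of the total the shift was -0.15. Then 5 predicted miRNAs rose and 20 fell, against 37 and 64 of all 310, and the predicted DE-miRNAs were 3 higher and 9 lower. The predicted DE-miRNAs were 7 higher and 12 lower at a pseudocount of 0.1 TPM, against 9.35% and 6.77% of all 310. At 5 TPM they were 0 higher and 1 lower. Only 14 predicted miRNAs passed a filter of 7.5 TPM. Of these 3 rose and 5 fell, against 38 and 32 of the 206 miRNAs tested. The predicted DE-miRNAs were then 3 higher and 3 lower, and the 8 of the 14 called before kept their call. Except at 0.1 TPM, the share of DE-miRNAs over all miRNAs tested is not given for these alternatives. Their DE counts therefore have no background here and do not set the predicted miRNAs apart from the others. Fitted and adjusted over the predicted miRNAs alone, 13 rose and 20 fell. This fit also estimates the spread from them alone, and it has no background among all miRNAs. Leaving out each library in turn gave 24 to 68 rises and 18 to 67 falls among all miRNAs, 2 to 10 rises and 6 to 18 falls among the predicted, and a difference of their sums of -49.4 to 3.60 TPM. By scaling, that difference was -79.7 TPM with clean reads, -47.8 TPM with median-of-ratios scaling and -66.8 TPM with dre-let-7a and dre-miR-100-5p left out (exact permutation p = 0.1 each, the lowest possible, against 0.6).

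With a replicate block 5 predicted miRNAs rose and 12 fell, against 39 and 30 of all 310, and 8 of the 25 lost their call. Libraries with the same number did not deviate together throughout (correlations 0.015, 0.142 and 0.060), so the numbers were not taken to pair the samples, although 6 of 6 libraries were closest to their own number.

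Of the 42 predicted miRNAs given by library under the naming rule, 4 that passed no test changed sign. dre-miR-N13 gave 0.00040 at a pseudocount of 0.1 TPM and -0.15 to 0.18 when libraries were left out. dre-miR-N16 gave -0.33 to 0.14 when libraries were left out. dre-miR-N21 gave 0.0079 at a pseudocount of 5 TPM and -0.23 to 0.27 when libraries were left out. dre-miR-N39 gave -0.23 with clean reads, -0.062 with median-of-ratios scaling, -0.11 with dre-let-7a and dre-miR-100-5p left out, and -0.12 to 0.29 when libraries were left out. Of the other 23, 9 also changed sign in at least 1 alternative, with differences of up to 0.27 in size before. The causes were not tested. 2 planned count tests were not run, because a library had only 84 to 98 low values from which to establish its reads. Members below 5 TPM rest on few reads, and differences within the spread between libraries were not detectable here.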
